A study of Homo sapiens with 6 samples.

Results

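The 10 genes described here are central to epithelial-mesenchymal transition (EMT), in which epithelial cells lose their junctions and take on a mesenchymal form: the transcription factor genes ZEB1, ZEB2, SNAI1, SNAI2 and TWIST1, the classical cadherin genes CDH1, CDH2 and CDH3, the epithelial adhesion gene EPCAM and the intermediate filament gene VIM. They were chosen by gene symbol and make up 10 of the 58735 rows of a table of gene expression from TPC1 cells, an established line from a papillary thyroid carcinoma. In 3 samples the cells had been transfected with si-circ_0000839, an siRNA against the circular RNA hsa_circ_0000839, and in the other 3 with the control siRNA NC, and RNA was collected 60 h later in both groups. All 6 samples come from the same line, grown in DMEM, so the values describe that line alone. The circular RNA has no row matched to it here, so its depletion was not checked.

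E-cadherin, the product of CDH1, joins neighbouring epithelial cells through catenins that bind its tail. The ZEB, Snail and Twist proteins lower CDH1 transcription, ZEB and Snail proteins by binding E-box sequences in its promoter. During EMT, N-cadherin (CDH2) and vimentin (VIM) commonly take the place of E-cadherin and keratins. The miR-200 microRNAs hold ZEB1 and ZEB2 messages down in epithelial cells, and the ZEB proteins in turn repress the miR-200 genes.

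The mature miR-200 sequences are shown because both ZEB messages carry several matches to their seeds. The sequences are from RefSeq (GRCh38.p14), 5′ to 3′, with the seed, bases 2 to 8, in capitals. The family has 2 seeds, AAUACUG in miR-200b-3p, miR-200c-3p and miR-429 and AACACUG in miR-200a-3p and miR-141-3p.
hsa-miR-200b-3p: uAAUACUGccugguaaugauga
hsa-miR-200c-3p: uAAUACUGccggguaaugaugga
hsa-miR-429: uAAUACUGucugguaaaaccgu
hsa-miR-200a-3p: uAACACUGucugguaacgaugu
hsa-miR-141-3p: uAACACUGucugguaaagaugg

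In the longest coding transcript of each gene in GENCODE 29, the 3′UTRs of ZEB1 and ZEB2 each held 9 matches to these seeds. That of ZEB1 (2549 bases) had 6 of CAGTATT and 3 of CAGTGTT, and that of ZEB2 (5370 bases) 5 and 4. SNAI2 had 1 match and the other 7 genes had 0. Over 18848 3′UTRs, with a median of 806 bases, 25.0% held at least 1 match of either kind. Among the 2103 of like length to that of ZEB1 (within a factor of 0.8 either way), 0.05% had as many or more, and among the 899 of like length to that of ZEB2, 0.22%. Each share counts the 3′UTR of the named gene itself. A match is only a run of letters and was not tested as a site. The first matches to the miR-200b seed in each 3′UTR are shown in 22-base windows (GRCh38, gene strand), with the match in capitals.
ZEB1 chr10:31527618-31527639, plus strand: attgttttatcttatCAGTATT
ZEB1 chr10:31527712-31527733, plus strand: atgctaaatccgcttCAGTATT
ZEB2 chr2:144389053-144389074, minus strand: cgcactaccatacatCAGTATT
ZEB2 chr2:144388990-144389011, minus strand: cgcactacaatgcatCAGTATT

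The hairpins of the family gave few or no reads in these libraries, which were made from total RNA and not for small RNA, so mature microRNAs were not measured. MIR200C, MIR141 and their host transcript MIR200CHG had 0 reads in all 6 libraries. There 3 reads of MIR200CHG would be at most 0.472 FPKM, the read density scaled to gene length and a total for each library. The hairpin MIR429 had 28 reads summed over the si-circ_0000839 libraries and 19 over the NC libraries. MIR200B had 14 and 11, and MIR200A 6 and 8.

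RefSeq promoter windows (300 bases, from 250 before to 50 after a transcript start) were used for 4 of the 10 genes, CDH2, VIM, ZEB1 and ZEB2. They were searched for CAGGTG and, for the other strand, CACCTG, the E-box that ZEB and Snail proteins bind. Of all 35116 windows, 20.6% held at least 1 and 3.5% at least 2. The window nearest the annotated start held none for CDH2, VIM and ZEB2 and 1 for ZEB1, and a second ZEB1 window held 3. The other ZEB1 windows held none. ZEB1 had 7 windows, CDH2 had 2, and VIM and ZEB2 had 1 each, so the genes were not searched equally. The start of the ZEB2 window lay 4464 bases from the annotated gene start, and that of the ZEB1 window with 3 matches 721 bases. The nearest windows of CDH2 and VIM, the 2 most abundant of the 10 genes, and the ZEB1 window with 3 matches are printed on the gene strand, with matches in capitals. GC content was 67.0% in the CDH2 window and 48.0% in that of VIM, against a median of 58.7% over all windows.
CDH2 chr18:28177081-28177380, minus strand: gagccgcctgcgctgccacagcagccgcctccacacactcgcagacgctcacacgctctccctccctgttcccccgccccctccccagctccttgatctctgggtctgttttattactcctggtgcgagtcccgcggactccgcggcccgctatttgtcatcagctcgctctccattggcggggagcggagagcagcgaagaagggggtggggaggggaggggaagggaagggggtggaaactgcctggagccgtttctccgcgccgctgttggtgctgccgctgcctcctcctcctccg
VIM chr10:17227991-17228290, plus strand: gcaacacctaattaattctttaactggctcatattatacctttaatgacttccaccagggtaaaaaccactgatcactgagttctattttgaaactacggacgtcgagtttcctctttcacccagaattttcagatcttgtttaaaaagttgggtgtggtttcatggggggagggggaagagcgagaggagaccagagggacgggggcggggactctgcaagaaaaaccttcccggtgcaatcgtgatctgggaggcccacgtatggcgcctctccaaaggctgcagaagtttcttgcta
ZEB1 chr10:31318966-31319265, plus strand: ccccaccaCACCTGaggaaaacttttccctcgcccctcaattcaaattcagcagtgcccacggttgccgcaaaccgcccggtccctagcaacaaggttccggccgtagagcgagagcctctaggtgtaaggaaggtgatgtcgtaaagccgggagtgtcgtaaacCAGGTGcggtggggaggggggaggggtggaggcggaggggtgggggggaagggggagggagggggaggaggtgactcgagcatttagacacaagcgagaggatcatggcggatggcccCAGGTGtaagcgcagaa

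In both groups the cells held much vimentin RNA, a moderate amount of N-cadherin and SNAI2 RNA, and no read of CDH1. After si-circ_0000839, CDH2 stood at 1.28 times its NC level, TWIST1 at 1.16 times and VIM at 0.93 times. For each of them the groups did not overlap, as for 18.1% of all tested genes. None of the 5 genes that were abundant enough to test passed the test over all genes. The order by mean FPKM over the 6 libraries was VIM, CDH2, SNAI2, SNAI1, TWIST1, EPCAM, ZEB1, ZEB2, CDH3 and CDH1. VIM was 11.8 times CDH2, which was 2.10 times SNAI2, which was 3.26 times SNAI1. The ranges of SNAI1 and TWIST1 over the 6 libraries overlapped, as did those of EPCAM and ZEB1. All other neighbours in this order were apart in every library, ZEB1 and ZEB2 by the least: the lowest ZEB1 value was 0.666 FPKM and the highest ZEB2 value 0.650. The order and ratios depend on the gene lengths behind FPKM, and ZEB2 had more reads than ZEB1 in every library.

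**Figure D1:**
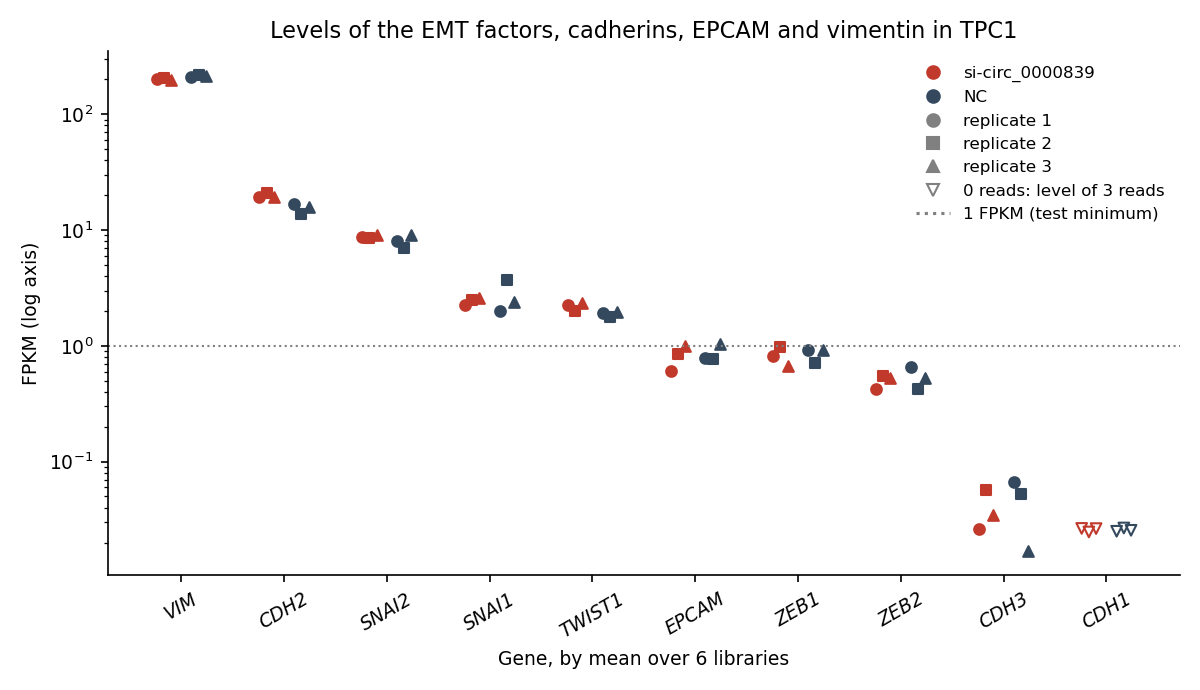
Expression of the 10 EMT genes in each library, in FPKM on a logarithmic axis, with si-circ_0000839 libraries left of NC libraries for each gene. VIM lies between 196.8 and 220.0 FPKM, and CDH1, with 0 reads in all 6 libraries, is drawn as open triangles at the level of 3 reads.

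The libraries held 18399558 to 19334633 reads, recovered from the table, and 10674 genes had a mean of at least 1 FPKM and were tested. At an adjusted p under 0.05 in limma, 41 of them (0.384%) were called, 14 higher and 27 lower after si-circ_0000839. That split moved with the scaling, to 32 higher and 23 lower after rescaling to TPM and 29 and 34 after quantile normalization. Without si-circ_0000839 replicate 1 or 3 the count was 21 or 22, and without NC replicate 1 or 3 it was 25 or 20. On the main axes of variation si-circ_0000839 replicate 1 and NC replicate 2 stood apart from the rest (34.9% and 27.6% of the variance). The thyroid factor PAX8 was at 96.3 ± 5.26 FPKM after si-circ_0000839 and 95.8 ± 2.21 in NC (SD, n = 3 each), while the thyroid genes NKX2-1, SLC5A5 and TSHR had 0 reads in every library. Leukocyte markers included PTPRC at 0 reads, with LCP1 at 216 FPKM after si-circ_0000839 and 210.4 in NC. Summed fibroblast markers were at 14.8 to 19.3 FPKM after si-circ_0000839 and 20.6 to 25.5 in NC, nearly all of it LUM, with COL1A2, DCN and PDGFRA at or near 0. Summed endothelial markers were at 3.39 to 4.23 FPKM after si-circ_0000839 and 2.68 to 3.03 in NC, most of it ROBO4. The part of these markers in the results was not tested.

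N-cadherin, encoded by CDH2 (ENSG00000170558, chromosome 18, 27950966 to 28177446, minus strand, GRCh38), is the cadherin of neural and mesenchymal cells. Its FPKM was 19.3, 20.9 and 19.3 after si-circ_0000839 and 16.9, 13.8 and 15.8 in NC. Every si-circ_0000839 library was above every NC library, and the lowest value was that of NC replicate 2, a library that stood apart. The means were 19.8 ± 0.926 FPKM after si-circ_0000839 and 15.5 ± 1.55 in NC (SD, n = 3 each), from 1244 to 2035 reads per library. In limma the change of log2(FPKM + 1), a scale that understates changes of low genes, was 0.34 (SE 0.08, 95% interval 0.16 to 0.52), with an adjusted p of 0.122. It ranked 164 of 10674 genes by p, and 12.6% of all tested genes had an unadjusted p under 0.05. The exact two-sided permutation test of its FPKM gave p = 0.1, the smallest that 3 against 3 samples allow. Without NC replicate 2 the change was 0.26 (adjusted p = 0.141), and without both libraries that stood apart 0.28 (adjusted p = 0.110). After a trend on GC content and gene length was removed from each library it was 0.33 and passed the threshold in limma (adjusted p = 0.0424), in a fit that called 220 of 10670 genes (2.06%). In bulk RNA, a difference in the number of cells that express a gene cannot be told apart from one in RNA per cell.

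E-cadherin and P-cadherin, the epithelial classical cadherins, are encoded by neighbouring genes on chromosome 16, CDH3 at 68636189 to 68722616 and CDH1 at 68737225 to 68835548, both on the plus strand. CDH1 (ENSG00000039068) had 0 reads in each of the 6 libraries, where 3 reads would be at most 0.0267 FPKM. CDH3 (ENSG00000062038), which is found in basal epithelial layers, had 3, 7 and 4 reads after si-circ_0000839 and 8, 6 and 2 in NC. These sum to 14 reads after si-circ_0000839 (95% exact Poisson interval 7.65 to 23.5) and 16 in NC (9.15 to 25.98), and the groups overlapped. The intervals and floors cover counting error only.

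Of the 23 cadherin genes in the table, 5 had a mean of at least 1 FPKM and 7 had 0 reads in all libraries. Per unit length, the most abundant was CDH4, which encodes R-cadherin and is closely related to CDH2. CDH4 was at 45.0, 39.5 and 42.6 FPKM after si-circ_0000839 and 39.2, 39.8 and 36.8 in NC, and the groups overlapped (limma adjusted p = 0.508). CDH13, which encodes T-cadherin, a cadherin with no cytoplasmic tail, was at 6.02 ± 0.0497 FPKM after si-circ_0000839 and 4.80 ± 0.306 in NC (SD, n = 3 each), without overlap (log2 change 0.28, limma adjusted p = 0.167). CDH24 was at 4.18 FPKM after si-circ_0000839 and 4.12 in NC, and CDH6 at 1.45 after si-circ_0000839 and 1.33 in NC. CDH2 made up 24.9%, 29.02% and 25.9% of summed cadherin FPKM after si-circ_0000839 and 25.1%, 21.3% and 24.9% in NC. These shares overlapped between the groups. All 4 tested cadherins other than the 10 genes had values above 0 in log2 change, with a median of 0.10, and none was called. Over 18 alternatives the median ran from 0.01 (14 genes, no filter) to 0.20 (2 genes, mean of at least 5 FPKM). With the GC and length trend removed 3 of 4 were above 0. The count was also 3 of 4 without si-circ_0000839 replicate 1 or 3, or NC replicate 1 or 3.

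**Figure D2:**
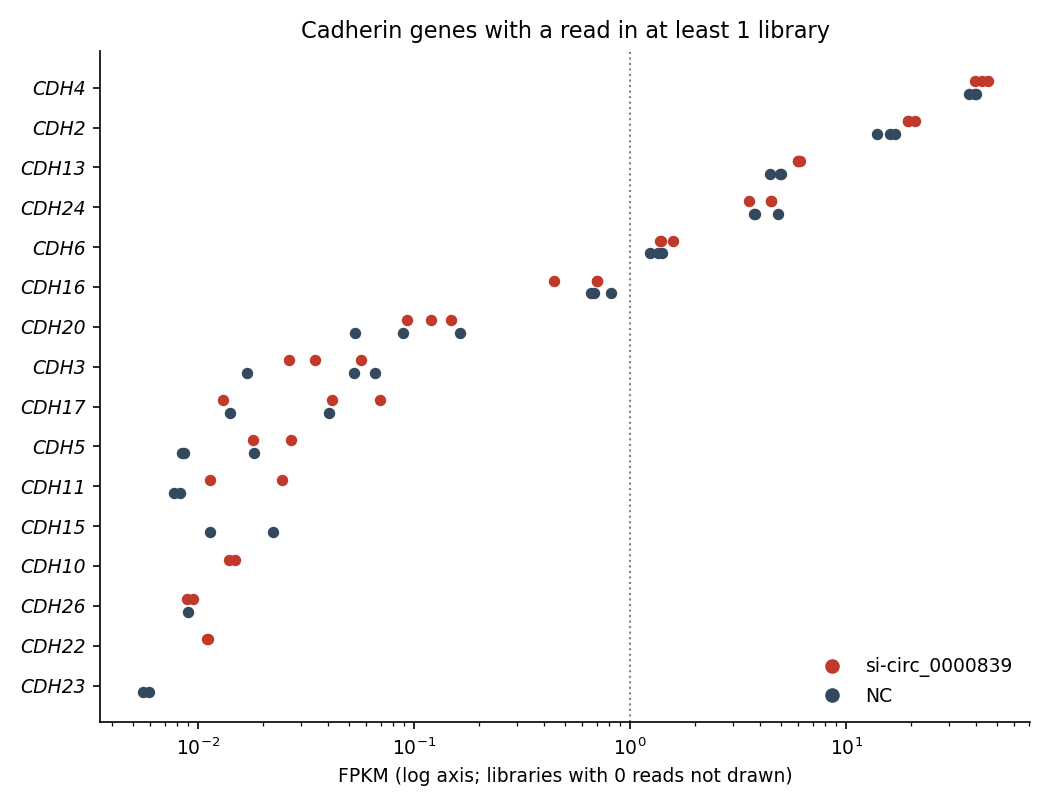
Cadherin genes by library, in FPKM, on a logarithmic axis, with si-circ_0000839 libraries (red) above NC libraries (blue) for each gene with a read. CDH4 and CDH2 are the most abundant, CDH3 lies under 0.1 FPKM, and CDH1, at 0 in every library, is not drawn.

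Vimentin, the intermediate filament protein of mesenchymal cells, is encoded by VIM (ENSG00000026025, chromosome 10, 17228259 to 17237593, plus strand). Its FPKM was 202.7, 204.0 and 196.8 after si-circ_0000839 and 210.4, 220.0 and 215.4 in NC. Each si-circ_0000839 library was below each NC library, by a small margin. The means were 201 ± 3.86 FPKM after si-circ_0000839 and 215 ± 4.81 in NC (SD, n = 3 each), from 18677 to 21153 reads per library. The log2 change was -0.10 (95% interval -0.24 to 0.05, limma adjusted p = 0.590), and the exact permutation p was 0.1, the smallest possible. Its antisense neighbour VIM-AS1 was at 0.681 FPKM after si-circ_0000839 and 0.602 in NC, and as the strand setting is not given in the sources used here, reads of such pairs cannot be told apart.

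Beside VIM the cells held keratins, the intermediate filaments of epithelia. KRT81, a hair keratin whose value is uncertain because it has near-identical relatives, was at 1491 ± 97.7 FPKM after si-circ_0000839 and 1679.8 ± 120 in NC (SD, n = 3 each), without overlap and not called (limma adjusted p = 0.470). KRT8 was at 190.1 FPKM after si-circ_0000839 and 207.8 in NC, KRT18 at 101 after si-circ_0000839 and 116 in NC, and KRT7 at 101 after si-circ_0000839 and 95.1 in NC. KRT8 and KRT18 overlap on opposite strands of chromosome 12. KRT19 had 0 to 4 reads per library. VIM made up 9.17%, 10.2% and 9.13% of the summed FPKM of 17 chosen cytoplasmic intermediate filament genes after si-circ_0000839 and 9.37%, 8.66% and 9.58% in NC, so the groups overlapped in this share. Most of that sum was KRT81, so the share depends strongly on that uncertain value. Of 9 tested filament genes other than VIM, 3 had values above 0 and 6 below, with a median log2 change of -0.03 (-0.09 to -0.01 over 18 alternatives) and 0 called.

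Among the transcription factors, SNAI2, which encodes Slug, was the most abundant, with 435 to 584 reads per library. Its FPKM was 8.63, 8.57 and 9.08 after si-circ_0000839 and 8.04, 7.05 and 9.04 in NC, the lowest in NC replicate 2. The groups overlapped (means 8.76 ± 0.278 FPKM after si-circ_0000839 and 8.05 ± 0.994 in NC, SD, n = 3 each; exact permutation p = 0.3). The log2 change was 0.12 (95% interval -0.08 to 0.31, limma adjusted p = 0.635). SNAI2 (ENSG00000019549) lies on chromosome 8, 48917604 to 48921740, minus strand. It made up 51.1%, 52.7% and 51.7% of the summed FPKM of the 7 ZEB, Snail and Twist genes after si-circ_0000839 and 51.8%, 43.8% and 53.1% in NC.

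SNAI1 (ENSG00000124216, chromosome 20, 49982999 to 49988886, plus strand) encodes Snail, a short-lived repressor. It was at 2.23, 2.50 and 2.61 FPKM after si-circ_0000839 and 2.02, 3.72 and 2.37 in NC, from 66 to 114 reads. Its highest value was that of NC replicate 2, so the NC group spanned all si-circ_0000839 values. The log2 change was -0.08 (95% interval -0.39 to 0.24, limma adjusted p = 0.869), and without NC replicate 2 it was 0.11, the other way.

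TWIST1 (ENSG00000122691, chromosome 7, 19020991 to 19117672, minus strand), a basic helix-loop-helix factor of mesoderm and neural crest, was at 2.25, 2.001 and 2.33 FPKM after si-circ_0000839 and 1.93, 1.79 and 1.96 in NC. The groups did not overlap, although the gap between si-circ_0000839 replicate 2 and NC replicate 3 was narrow and rested on 80 and 76 reads. The means were 2.19 ± 0.170 FPKM after si-circ_0000839 and 1.89 ± 0.0937 in NC (SD, n = 3 each), a ratio of 1.16, with a log2 change of 0.14 (95% interval -0.04 to 0.33, limma adjusted p = 0.527). Its relative TWIST2 was at 2.12 ± 0.420 FPKM after si-circ_0000839 and 2.03 ± 0.173 in NC. SNAI3, the other Snail family gene, was at 0.0726 FPKM after si-circ_0000839 and 0.155 in NC, from only 1 to 8 reads per library, and the groups overlapped.

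**Figure D3:**
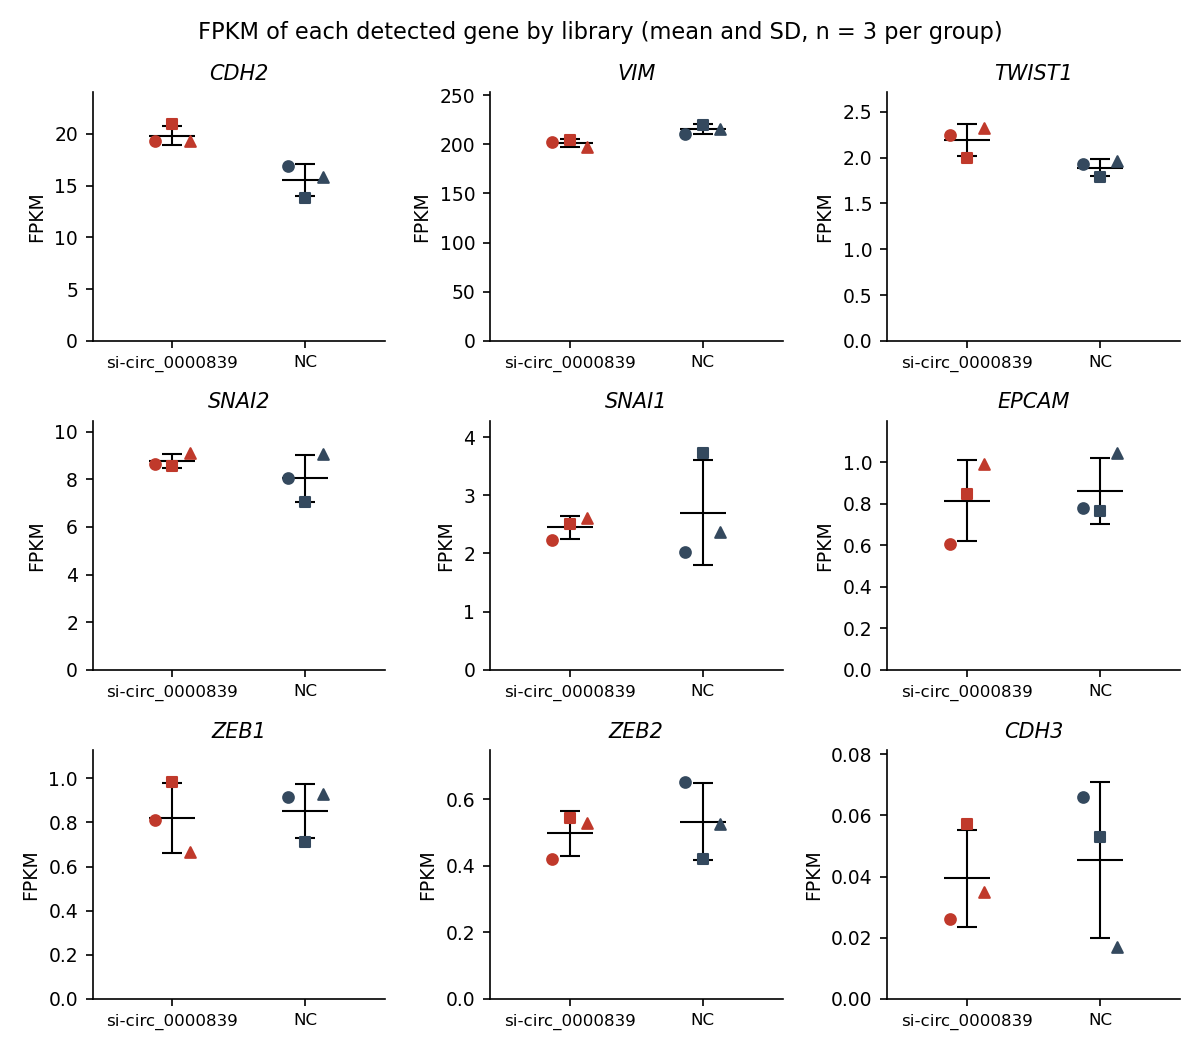
FPKM of the 9 EMT genes with any read, each on its own axis from 0, with 1 point per library (marker shape gives the replicate number), the mean and the SD (n = 3 per group). Points of CDH2 and TWIST1 are higher after si-circ_0000839 than in NC in every library and those of VIM lower, while the other 6 genes overlap.

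The ZEB genes were low. ZEB1 (ENSG00000148516, chromosome 10, 31318495 to 31529814, plus strand), a zinc finger repressor of CDH1, was at 0.813, 0.982 and 0.666 FPKM after si-circ_0000839 and 0.918, 0.712 and 0.929 in NC. ZEB2 (ENSG00000169554, chromosome 2, 144364364 to 144524583, minus strand), its close relative, was at 0.420, 0.544 and 0.529 FPKM after si-circ_0000839 and 0.650, 0.421 and 0.526 in NC. In both genes the groups overlapped, and each exact permutation test gave p = 0.9. Although ZEB2 was lower per length, it had more reads (192 to 316 per library) than ZEB1 (106 to 167), since the length the table gives it is 25058 bases against 8650. Both fell under the minimum of 1 FPKM. In a fit with no minimum the log2 change was -0.03 for each (limma adjusted p = 0.949 for ZEB1 and 0.916 for ZEB2), with 95% intervals of -0.27 to 0.21 and -0.23 to 0.16. The antisense ZEB1-AS1 was at 0.324 FPKM after si-circ_0000839 and 0.354 in NC, and ZEB2-AS1 had 0 reads.

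EPCAM (ENSG00000119888, chromosome 2, 47345158 to 47387601, plus strand) encodes an adhesion protein of simple epithelia and many carcinomas. It was at 0.606, 0.848 and 0.992 FPKM after si-circ_0000839 and 0.778, 0.764 and 1.04 in NC, from 28 to 50 reads. The means were 0.815 ± 0.195 FPKM after si-circ_0000839 and 0.861 ± 0.157 in NC (SD, n = 3 each), and the groups overlapped (exact permutation p = 0.9). With no minimum the log2 change was -0.04 (95% interval -0.32 to 0.24).

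In all, 5 of the 10 genes passed the minimum and 0 of these 5 were called, beside 0.384% of all tested genes, and voom on the recovered reads also called 0. At an unadjusted p under 0.05 there was 1, CDH2. Groups did not overlap for 3 of the 5, CDH2 and TWIST1 upward and VIM downward, and for 18.1% of all tested genes, 10.6% higher and 7.55% lower. Of the 5 intervals, the widest was that of SNAI1 and the narrowest that of VIM.

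**Figure D4:**
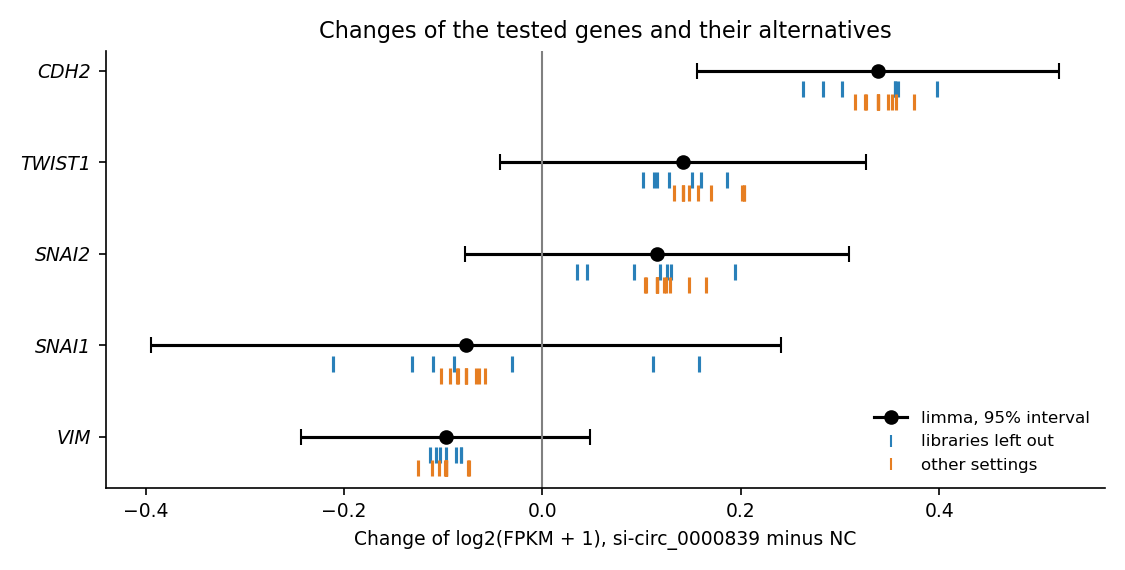
Change of log2(FPKM + 1), si-circ_0000839 minus NC, of the 5 tested genes, as points with 95% intervals from limma, and ticks for the alternatives (blue with libraries left out, orange for other settings). The interval of CDH2 (0.16 to 0.52) lies above 0 and the others span 0, and the SNAI1 ticks fall on both sides of 0.

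The genes whose pattern over the 6 libraries was most like that of an abundant member were found by Pearson r of log2(FPKM + 1) among 9665 protein-coding genes. They were ZBTB8OS (r = 0.984) and CA2 (0.978) for VIM, NSF (0.992) and PPP3CB (0.989) for CDH2, and CCDC106 (0.982) and ARHGEF35 (0.981) for SNAI2. With so many candidates and 6 libraries, of which several share a group, such values are a description only.

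Genes around the 10 were counted in 13 lists with 284 different genes, of which 191 were tested, 3 called higher and 0 lower. The median log2 change over all tested genes was 0.01, with 5529 above 0 and 5145 below. Of all tested genes 0.384% were called, and groups did not overlap upward for 10.6% and downward for 7.55%. The 3 list calls were all among mesenchymal genes, where 25 of 30 tested genes had values above 0, with a median of 0.20 (0.17 to 0.24 over 18 alternatives). In that list groups did not overlap upward for 15 and downward for 1. That values of such genes lie above 0 was known from an earlier analysis of these libraries when the list was made, and is not independent support. The summed fibroblast markers, lower after si-circ_0000839, were nearly all LUM. Fibroblast markers at low levels differed in direction. COL1A1 was at 0.565 ± 0.0601 FPKM after si-circ_0000839 and 0.370 ± 0.0571 in NC, and PDGFRB at 0.197 ± 0.0548 after si-circ_0000839 and 0.136 ± 0.0145 in NC. THY1 went the other way, at 0.285 ± 0.0925 after si-circ_0000839 and 0.329 ± 0.0816 in NC (SD, n = 3 each). The fibronectin receptor subunit ITGA5 (76.4 FPKM after si-circ_0000839, 53.3 in NC, adjusted p = 0.0244) and the matrix protein gene TGFBI (94.7 FPKM after si-circ_0000839, 68.4 in NC, adjusted p = 0.0257) rose in the limma fit. Both missed the threshold without si-circ_0000839 replicate 1 or 3 or NC replicate 1 or 3, with adjusted p up to 0.108 for ITGA5 and 0.125 for TGFBI, and with no filter on low values (0.241 and 0.226). TGFBI also missed it with a constant prior variance (0.0505). Fibronectin itself, FN1, the most abundant of the list, was at 853 FPKM after si-circ_0000839 and 841 in NC (adjusted p = 0.947).

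Of the genes that act on the cadherin system, catenins and linkers had 13 of 13 tested values above 0, with a median of 0.07 and none called. Fewer were above 0 without the libraries that stood apart: 9 of 13 were above 0 without si-circ_0000839 replicate 1 (median 0.03), and 7 of 13 without both (median 0.00). VCL, vinculin, was at 24.8 ± 0.827 FPKM after si-circ_0000839 and 21.8 ± 0.534 in NC (SD, n = 3 each), without overlap (limma adjusted p = 0.296), and ZYX was at 155.7 after si-circ_0000839 and 155.0 in NC. Among genes of cadherin turnover and shedding, 15 of 19 were above 0, with a median of 0.04 and none called, and 11 of 19 with the GC and length trend removed (median 0.02). PSENEN, a gamma-secretase subunit, was at 7.83 FPKM after si-circ_0000839 and 9.34 in NC (adjusted p = 0.219), and APH1A was at 83.1 after si-circ_0000839 and 82.6 in NC. Of the epithelial genes that ZEB and Snail proteins repress, 2 of 11 were above 0 and 9 below, with a median of -0.09 (-0.14 to -0.01 over 18 alternatives) and none called. With no filter on low values the split was even, 13 of 26 above 0 and 13 below (median -0.01). MAL2 was at 24.9 FPKM after si-circ_0000839 and 29.6 in NC (adjusted p = 0.296) and CLDN1, claudin-1, at 139 after si-circ_0000839 and 138 in NC. In the EpCAM list, 2 of 6 were above 0 (median -0.06, and -0.10 to 0.01 over 18 alternatives, none called), with the sheddase ADAM17 at 2.71 FPKM after si-circ_0000839 and 3.39 in NC (adjusted p = 0.259) and CD44 at 59.9 after si-circ_0000839 and 61.8 in NC. Vimentin linkers were split 9 and 9 (median 0.00, and -0.03 to 0.03 over 18 alternatives, none called), with CDK1, a kinase that phosphorylates vimentin, at 16.6 FPKM after si-circ_0000839 and 19.5 in NC and FLNA at 581 after si-circ_0000839 and 558 in NC. KRT80 had the smallest p of the other filament genes (32.3 FPKM after si-circ_0000839, 27.2 in NC, adjusted p = 0.305).

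Other EMT transcription factors had 8 of 14 tested values above 0, with a median of 0.03 and none called. Without si-circ_0000839 replicate 1 there were 6 of 14, with a median of -0.03, and without both libraries that stood apart 7 of 14 (median -0.01). HMGA2, a chromatin protein of embryonic and tumour cells, was at 11.02 ± 0.463 FPKM after si-circ_0000839 and 7.90 ± 0.823 in NC (SD, n = 3 each; log2 change 0.44, limma adjusted p = 0.0653). FOSL1, an AP-1 subunit, was at 154 ± 10.5 FPKM after si-circ_0000839 and 133 ± 8.92 in NC (adjusted p = 0.310). Corepressors had 16 of 22 values above 0 (median 0.05, and 0.03 to 0.08 over 18 alternatives, none called), with SMARCA4 at 15.1 FPKM after si-circ_0000839 and 12.8 in NC (adjusted p = 0.248) and HDAC1 at 65.5 after si-circ_0000839 and 64.6 in NC. Genes for the turnover of Snail, Slug and Twist had 9 of 24 above 0 (median -0.01, and -0.04 to 0.01 over 18 alternatives, none called). In this list the phosphatase gene CTDSPL was at 7.48 ± 0.120 FPKM after si-circ_0000839 and 9.70 ± 0.384 in NC (SD, n = 3 each; log2 change -0.33, adjusted p = 0.0856), and LOXL2 was at 114 after si-circ_0000839 and 109 in NC. Inducers of these genes had 17 of 25 above 0 (median 0.06, none called), and 13 of 25 without NC replicate 2 (median 0.04). The median was 0.02 with the GC and length trend removed. This list held EPAS1, which encodes HIF-2 alpha, at 6.996 ± 0.294 FPKM after si-circ_0000839 and 9.08 ± 0.659 in NC (log2 change -0.33, adjusted p = 0.108) and YBX1 at 736 after si-circ_0000839 and 765 in NC. Of 22 epithelial transcription factors, splicing factors and microRNA hosts, 3 reached the minimum, 8 had 0 reads throughout, the median of the 3 ran from -0.17 to 0.09 over 18 alternatives, and KLF4 (4.48 FPKM after si-circ_0000839, 4.08 in NC, adjusted p = 0.650) and ELF3 (6.02 FPKM after si-circ_0000839, 6.41 in NC) were not called.

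**Figure D5:**
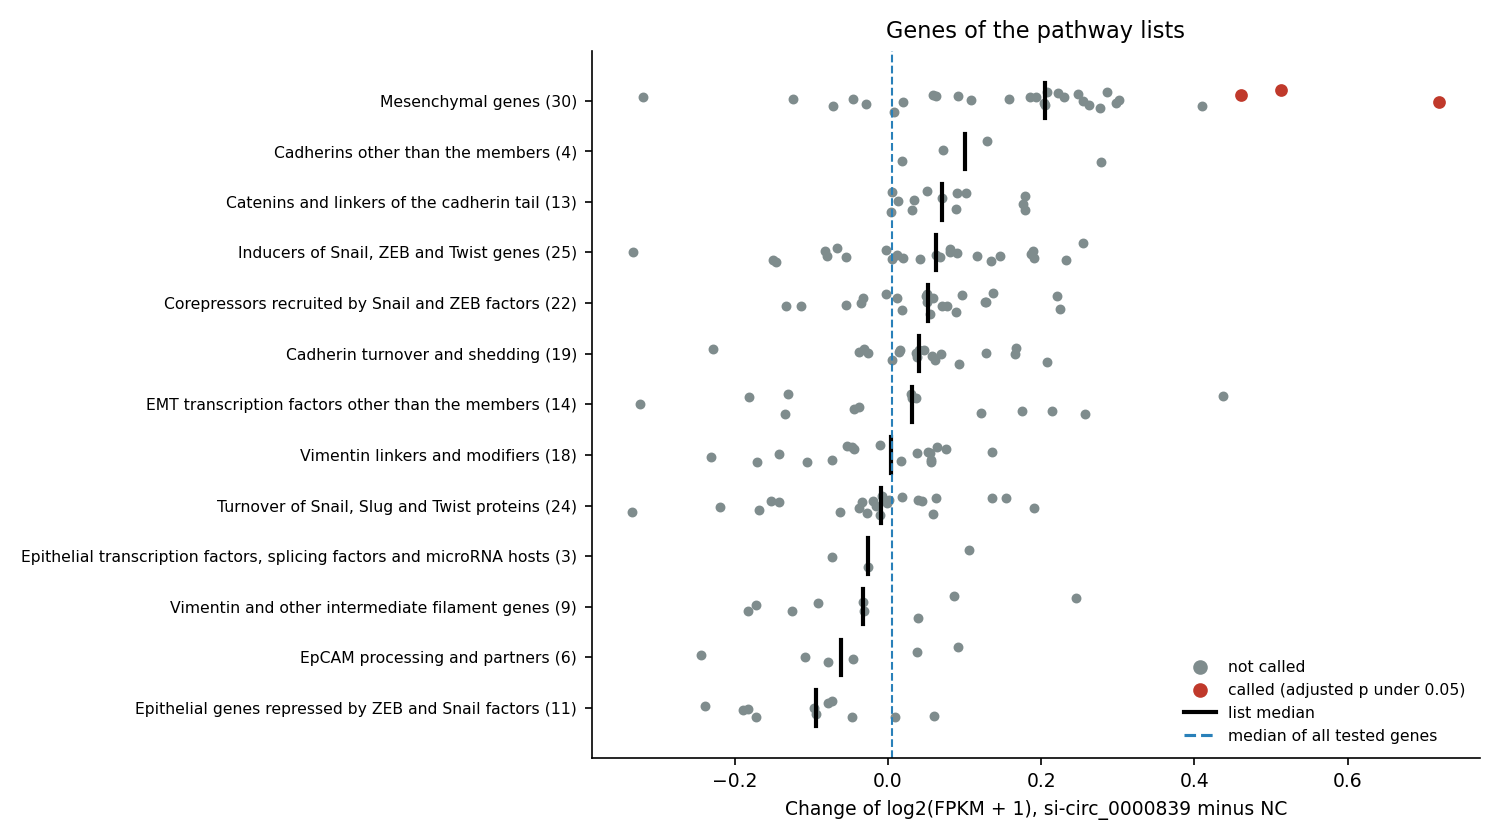
Change of log2(FPKM + 1), si-circ_0000839 minus NC, of each tested gene in 13 lists, with the list median (bar) and the median of all tested genes (dashed line). Red points are the 3 called genes, all in the mesenchymal list.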

How the data were processed

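Total RNA of TPC1 cells was sequenced in 3 si-circ_0000839 and 3 NC samples, grouped by sample title. The authors deposited FPKM values for 58735 genes with gene lengths, per the file headers, and the submitters' processing notes list the tools HISAT2 2.0.5 and featureCounts 1.5.0-p3. Not given in the sources used here are the genome build, strand setting and scaling total. All gene coordinates equal those of GENCODE release 29, so GRCh38 is used. Multiplied by gene length, 100% of the FPKM values came out as whole reads (within 0.01) once divided by a step per library. The scaling total that this step implies was 0.958 (NC replicate 2) to 1.02 times the recovered reads. As FPKM is not a count, limma 3.58.1 in R 4.3.3 was run on log2(FPKM + 1) with a trended prior variance, two-sided, group as the only term, for genes averaging at least 1 FPKM, with Benjamini-Hochberg adjustment over 10674 genes and a threshold of 0.05. It was tested on simulated data with the same dispersion for every gene, so that test does not show its error rate on these libraries. Single genes also had an exact two-sided permutation test, with p of at least 0.1. The labels name no separate cultures, and p-values then reflect only the spread between the samples, which may be technical. The 10 genes and the 13 lists were chosen with earlier results of these data known. Named genes were the 10, and from each list the called genes (up to 4), otherwise the gene with the smallest p, and the most abundant gene. Some items are not reported here. TWIST2, SNAI3, other cadherins and keratins, antisense neighbours and cell type markers were given for context. Alternatives were other pseudocounts (0.1 and 0.5), filters, scalings, prior variance, a replicate block, voom on recovered reads, removal of GC and length trends, and leaving out libraries. With the other filters, list medians can cover other numbers of genes.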

Additional observations from a re-analysis of the deposited data

How the results depend on the processing

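Over 18 alternatives CDH2 was higher after si-circ_0000839 (log2 change 0.26 to 0.40, adjusted p 0.0424 to 0.414) and was called only with the GC and length trend removed, so that 1 of the 10 genes was called there and 0 in the other alternatives. VIM stayed between -0.13 and -0.07, SNAI2 between 0.03 and 0.19 and TWIST1 between 0.10 and 0.20, none called. SNAI1 and TWIST1 have no value with a mean of at least 5 FPKM, which they do not reach, and CDH1 has none in any alternative. Without 1 library SNAI1 ranged from -0.21 to 0.11, and it changed direction without NC replicate 2 (0.11) and without both libraries that stood apart (0.16); the cause was not tested. Of all genes, 41 were called, against 4 with no filter, 68 with a mean of at least 5 FPKM, 63 after quantile normalization, 84 with voom, 220 with the GC and length trend removed, 26 without both libraries that stood apart, and 20 to 38 without 1 library. Of the list genes 3 were called, against 0 with no filter, 5 with a mean of at least 5 FPKM, 7 with voom, 14 with the trend removed and 1 to 3 without 1 library. The precision of CDH3 (2 to 8 reads per library) is bounded by its counting intervals.

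With the replicate number as a block 1 list gene was called (ITGA5 and TGFBI missed, adjusted p = 0.0613 and 0.0776), 0 of the 10 genes, and 35 of all genes. Same-numbered samples deviated from their group means with correlations of -0.149, -0.289 and 0.15, and not every sample correlated best with its own number, so the numbers were not taken as pairs.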

Other observations

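Some genes of the lists outside the naming rule, chosen after their values were seen, also had groups that did not overlap. Such a lack of overlap was found for 18.1% of all tested genes. AXL, a receptor kinase, was at 105 ± 5.43 FPKM after si-circ_0000839 and 86.0 ± 3.55 in NC (limma adjusted p = 0.129), and the gelatinase gene MMP2 at 240.3 ± 32.8 FPKM after si-circ_0000839 and 194 ± 3.48 in NC (adjusted p = 0.244). COL5A1 was at 4.62 ± 0.476 FPKM after si-circ_0000839 and 3.22 ± 0.136 in NC (adjusted p = 0.0859). SOX9 was at 8.64 ± 0.480 FPKM after si-circ_0000839 and 7.07 ± 0.366 in NC (adjusted p = 0.204). Among the other EMT transcription factors, groups did not overlap upward for 3, SOX9 included, and downward for 3. One of the latter was FOXC1, at 4.23 ± 0.0794 FPKM after si-circ_0000839 and 4.75 ± 0.232 in NC (limma adjusted p = 0.483). The inhibitors of basic helix-loop-helix factors ID1 and ID2 had lower values after si-circ_0000839. ID1 was at 115 ± 10.8 FPKM after si-circ_0000839 and 144 ± 20.3 in NC (limma adjusted p = 0.250). ID2 was at 32.3 ± 1.74 FPKM after si-circ_0000839 and 36.8 ± 1.29 in NC (limma adjusted p = 0.318). For ID3, of the same family, the groups overlapped, at 69.1 ± 4.18 FPKM after si-circ_0000839 and 76.4 ± 12.8 in NC. All means are over 3 libraries with the SD, and none of these genes passed the threshold.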
